A study of Mus musculus with 6 samples.

Results

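The Fasn and P4hb gene cluster of mouse chromosome 11 was described as the set of distal fragments that start between positions 120300000 and 120750000 of the genome build mm9 and that both HiCap replicates paired with the same promoter fragment. Of the 71955 distal fragments of the series with such a pair, 384 lay in this window of 450000 bp. They formed 951 called pairs, of 94896 in the series, with 61 promoter fragments of 41 gene names. The window and its pairs were chosen from the listed interactions themselves, so the numbers of pairs, partners and distances below are a description and carry no test. At the edges, the first fragment inside (120300969 to 120301781) was called with 3 promoters and the last inside (120741541 to 120742208) with 1, and the nearest outside (120295972 to 120296983 and 120751675 to 120752320) with 2 and 1.

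HiCap is Hi-C followed by hybridisation to probes for promoters. Chromatin is fixed and cut with MboI, which recognises GATC, the ends are ligated, and ligation products with a promoter are captured, so that a promoter and a distal fragment that lay close together in the nucleus are read as a pair. All libraries were from the R1 line of mouse embryonic stem cells (mESCs), kept undifferentiated with LIF on gelatin, and the labels name no treatment. HiCap was carried out on 2 biological replicates, and Hi-C was made from 2 replicates with MboI and deposited as 1 list that pools them. Capture-C libraries of the same line were not analysed here. The lists hold positions only, so the identity of the cells could not be checked against marker genes, and they give no read number for any pair.

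Promoters contact distal regions over a range of distances, and a contact often passes over other promoters, which a nearest-gene rule would miss. The cluster is a gene-dense interval. It holds Fasn, which encodes fatty acid synthase, the enzyme that builds long-chain fatty acids, and P4hb, which encodes protein disulfide isomerase, the folding enzyme of the endoplasmic reticulum. Genes for a carbonyl reductase (Cbr2), the glucagon receptor (Gcgr), a mitochondrial dicarboxylate carrier (Slc25a10), a sirtuin (Sirt7) and a subunit of the COP9 signalosome (Gps1) lie between or beside them.

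Distal fragments that many promoters shared are shown first, as those with the most partners. The sequences are from NCBIM37, which is mm9, plus strand, 5′ to 3′. The first 2 are the central 300 bases of the fragments with 21 and 20 promoters, at chr11:120680836-120681135 and chr11:120678534-120678833, both inside Fasn. The remaining 2 are whole short fragments, chr11:120681526-120681821 inside Fasn with 12 promoters and chr11:120439134-120439338, intergenic and next to Arhgdia, with 11 promoters. Capitals mark the MboI site that opens a fragment and a GC box (GGGCGG, here on the minus strand).
Fasn fragment with 21 promoters: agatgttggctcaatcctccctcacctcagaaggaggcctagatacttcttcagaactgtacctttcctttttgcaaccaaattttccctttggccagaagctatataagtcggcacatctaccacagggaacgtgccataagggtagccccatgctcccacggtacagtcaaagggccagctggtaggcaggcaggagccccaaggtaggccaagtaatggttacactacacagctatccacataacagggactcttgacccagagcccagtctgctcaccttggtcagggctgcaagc
Fasn fragment with 20 promoters: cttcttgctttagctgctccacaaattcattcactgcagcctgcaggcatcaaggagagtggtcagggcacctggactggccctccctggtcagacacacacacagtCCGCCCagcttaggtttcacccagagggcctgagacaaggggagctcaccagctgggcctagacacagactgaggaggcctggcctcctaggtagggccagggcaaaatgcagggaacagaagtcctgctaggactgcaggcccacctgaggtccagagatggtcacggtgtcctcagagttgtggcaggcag
Fasn fragment with 12 promoters: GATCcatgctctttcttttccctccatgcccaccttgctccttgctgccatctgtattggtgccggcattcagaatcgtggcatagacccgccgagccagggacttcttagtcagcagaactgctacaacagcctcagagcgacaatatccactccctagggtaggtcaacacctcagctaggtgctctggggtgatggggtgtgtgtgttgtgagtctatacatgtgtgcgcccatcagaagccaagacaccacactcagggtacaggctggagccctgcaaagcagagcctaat
Arhgdia fragment with 11 promoters: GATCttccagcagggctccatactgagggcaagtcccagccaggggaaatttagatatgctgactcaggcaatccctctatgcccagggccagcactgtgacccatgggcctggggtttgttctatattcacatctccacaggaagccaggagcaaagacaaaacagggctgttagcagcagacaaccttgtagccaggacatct

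The cluster was listed more densely than the series. Replicate 1 listed 2126 pairs with a distal fragment of the window, of 499746 in all, and replicate 2 listed 2937 of 553977. The Hi-C list held 421 of 74807 and the authors' combined list 951. Of the window's pairs in replicate 1, 44.7% (42.6 to 46.9, exact binomial 95% interval) were also in replicate 2, where over all pairs of replicate 1 the share was 19%. In the other direction 32.4% (30.7 to 34.1) of the window's pairs in replicate 2 were in replicate 1, beside 17.1% over the series. Intervals cover counting error only, since pairs that share a fragment are not independent. The replicates listed 636 distal fragments of the window between them, and the 384 that were called covered 394 of the 1144 MboI fragments of the window (34.4%) and 43.6% of its bases. All 951 pairs of the combined list had their gene and distal fragment in both replicate lists, and 875 of the 951 called pairs (92.0%) had the identical promoter fragment there.

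The called fragments lay mostly outside introns. Of the 384, 191 were intergenic (49.7%, 44.6 to 54.9), 104 overlapped an exon (27.1%) and 89 lay in introns (23.2%), whereas over the series 36.5% were intergenic, 24.4% exonic and 39.1% intronic. An annotated transcription start site was held by 3 (0.781%, 0.161 to 2.27), beside 1.09% over the series. The median fragment was 402.5 bp long, beside 568 bp over the series, and its median G+C content was 49.6% beside 46.5%. In the central 300 bases of the 259 fragments long enough, the core of the CTCF motif (CCA, any 2 bases, AG, any 2 bases, GGC, searched on both strands) was found in 7 (2.70%, 1.09 to 5.49), where 2.52% of 57481 fragments of the series held it. GC boxes were found in 9 (3.47% beside 5.78%), the Esrrb site TCAAGGTCA in 1 (0.386% beside 0.936%) and the sterol element TCACNCCAC in 2 (0.772% beside 1.05%). For all 4 motifs the interval of the window held the share of the series.

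Distal fragments of the cluster were shared among promoters. They had 2.48 promoters on average and a median of 2, beside a mean of 1.32 and a median of 1 over the series. Of the 384, 215 (56.0%, 50.9 to 61.0) were called with at least 2 promoters, where 15.4% of all called fragments were. A single promoter was called for 169, 2 promoters for 102 and 3 for 49. At the upper end 12 fragments (3.13%, 1.62 to 5.40) had 10 or more promoters, beside 0.495% over the series. These 12 carried 180 of the 951 called pairs (18.9%) and reached 52 of the 61 promoters. The captured promoter nearest to a fragment was among its partners for 168 of the 384 (43.8%, 38.7 to 48.9), beside 61.4% over the series.

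**Figure D1:**
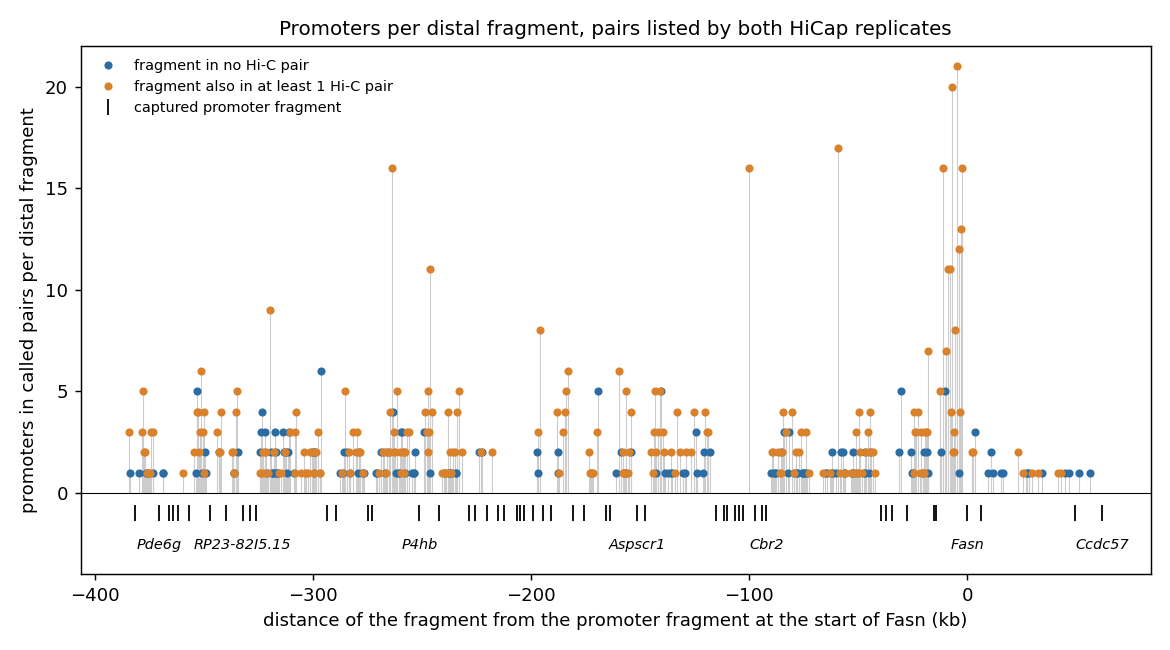
Number of promoters in called pairs (y axis) for each of the 384 distal fragments, against the distance in kb from the promoter fragment at the start of Fasn (x axis). Points are fragments, orange where the Hi-C list also holds the fragment, and ticks mark the 53 captured promoter fragments that a replicate lists. The highest points, with 21 and 20 promoters, stand within 10 kb of the Fasn start, and single high fragments stand near Cbr2 and P4hb.

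The body of Fasn held most of the widely shared fragments. Of the 12 fragments with 10 or more promoters, 8 overlapped Fasn exons. The fragment 120680446 to 120681525 was listed with 35 promoters in replicate 1 and 44 in replicate 2, and 21 were in both. Its neighbour 120678359 to 120679008 was listed with 29 and 37 promoters, with 20 in both. In Hi-C these 2 fragments were paired with 5 and 4 promoters. Each replicate therefore listed promoters at these fragments that the other lacked. Even so, the common share was higher here than for the whole window, with its 44.7% for replicate 1 and 32.4% for replicate 2. These fragments were picked by their number of called promoters, so the higher share is a description.

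Between 120672935 and 120681821, 15 adjoining fragments inside Fasn were all called, a stretch of 8887 bp and the longest unbroken run of the window. It carried 129 pairs with 37 promoters of 24 gene names. Over the whole gene (120667254 to 120685492, 18239 bp, minus strand), 21 called fragments lay wholly inside and carried 171 pairs with 39 promoters. The 3 promoter fragments of Fasn itself made 52 of these pairs, at a median of 7.33 kb, and 30 of the 52 were in the Hi-C list (57.7%). The other 119 pairs joined 15 of the fragments to 36 promoters of other genes at a median distance of 89.7 kb, and 12 of these were in the Hi-C list (10.1%). The pairs of Fasn itself also used 6 fragments that no other gene was called with, so these shares rest on partly different fragments as well as on different distances.

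The promoters that reached into Fasn came from both sides. Below Fasn in coordinate, 24 promoter fragments of 17 genes made 85 of the pairs, from Mrpl12, a mitochondrial ribosomal protein gene and the lowest in coordinate, to Dus1l, a tRNA dihydrouridine synthase gene. From beyond Fasn, 12 promoter fragments of 7 genes made 34 pairs, and 2 of these were in the Hi-C list. The 11 linked promoters that lie above the window belong to Ccdc57, Slc16a3 (a lactate transporter), Csnk1d (a casein kinase), Cd7, Sectm1a and Sectm1b (surface proteins of immune cells), Hexdc (a hexosaminidase) and a gene named RP23-400P17.2. Of their 23 called pairs, 20 ended inside Fasn, and 1 of the 23 was in the Hi-C list.

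**Figure D2:**
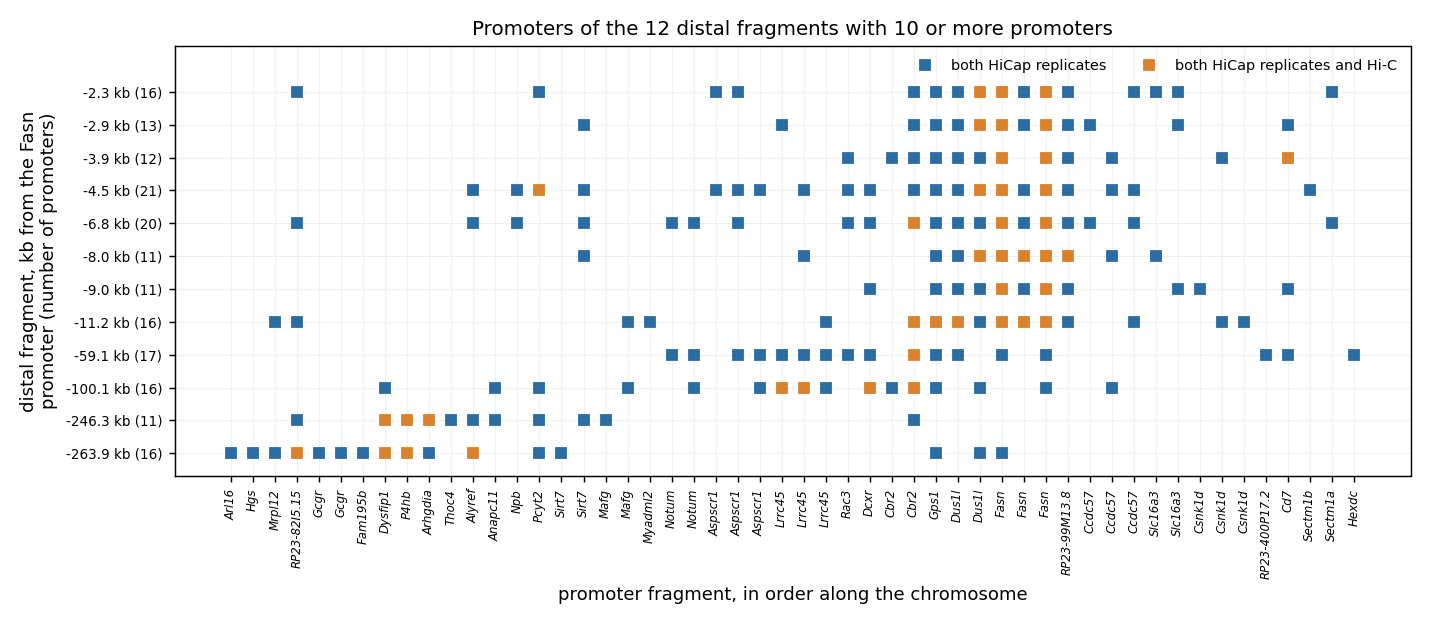
The 12 distal fragments with 10 or more promoters (rows, with their distance in kb from the Fasn start and their number of promoters) against the 52 promoter fragments they were called with (columns, in chromosomal order, a gene repeated where it has several fragments). Squares are called pairs, orange where the Hi-C list holds them too. The 8 rows inside Fasn share the promoters of Gps1, Dus1l, Fasn and RP23-99M13.8, and the bottom row, at the end of P4hb, reaches promoters from Arl16 to Fasn.

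Outside Fasn, 4 fragments had 10 or more promoters. A fragment between Cbr2 and Rfng was listed with 33 promoters in each replicate and called with 17. Hi-C paired it with 1 promoter, Cbr2, although 17 were called in HiCap. The fragment 120421401 to 120421945, which overlaps the last exon of P4hb, was listed with 31 and 32 promoters and called with 16, and Hi-C paired it with 5. The fragment 120584222 to 120586588 overlaps the end of Rac3 and was listed with 34 and 29 promoters and called with 16. It is the longest called fragment of the window, at 2367 bp, and of the 12 it is the one whose nearest captured promoter was not among its partners. The fragment 120439134 to 120439338, below Arhgdia, was listed with 16 and 29 promoters and called with 11. At both ends of all 12 fragments, the terminal 31 bases occurred once in chromosomes 1 to 19 and X.

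The pairs of these 12 fragments were longer than the others. Their median distance was 56.9 kb and they passed over a median of 5 captured promoters, whereas the other 771 pairs had a median of 15.5 kb and passed over 1. Choosing fragments by their number of promoters itself favours long pairs that pass over other promoters, so this difference is a description. In the Hi-C list the shares were 41 of 180 (22.8%) and 152 of 771 (19.7%). The 180 include short pairs of Fasn itself, so the first share is not that of the long pairs alone. Over all called fragments inside Fasn, 57.7% of the pairs of its own promoters were in Hi-C, beside 10.1% for other promoters. The promoter called with the most of the 12 was that of Gps1, with 11, followed by the Dus1l fragment at 120657374 to 120658022 and 2 of the 3 Fasn fragments with 10 each.

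Among promoters the pairs were unevenly spread. The 61 linked promoter fragments had a median of 7 called pairs, and 10 had 1, but 15 had 20 or more and together 695 of the 951 pairs. The promoter named RP23-82I5.15, a fragment at 120353076 to 120353857 that holds annotated start sites of Slc25a10 and of the antisense gene Gm11788, was first with 106 distal fragments. It was listed with 168 in replicate 1, 188 in replicate 2 and 31 in Hi-C, and 24 of the called pairs were in Hi-C. Cbr2 was next, with 104 from its fragment at 120592817 to 120594180, listed with 209, 183 and 30. Both promoters stood apart from the rest, and the next had 67.

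That next promoter was P4hb (120433573 to 120435223). It was listed with 129 distal fragments in replicate 1, 154 in replicate 2 and 17 in Hi-C, with 67 called and 10 of these in Hi-C. Its called pairs ran from 2.09 to 233.1 kb with a median of 15.0 kb, 50 of the 67 lay below it in coordinate, and 58 of its 67 fragments were also called with another gene. Fasn had 3 captured fragments. The one at its annotated start (120685187 to 120685868) was listed with 62 distal fragments in replicate 1, 82 in replicate 2 and 22 in Hi-C, with 38 called. The fragment at 120669730 to 120670822, which holds the start of another annotated Fasn transcript near the end of the gene, was listed with 99, 160 and 25, with 61 called. The smaller fragment beside it was listed with 19, 43 and 2, with 16 called. Counted together they reached 73 distal fragments, 41 of them also called with another gene. Of the 115 called pairs of Fasn 39 were in Hi-C, and of the 67 of P4hb 10 were.

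**Figure D3:**
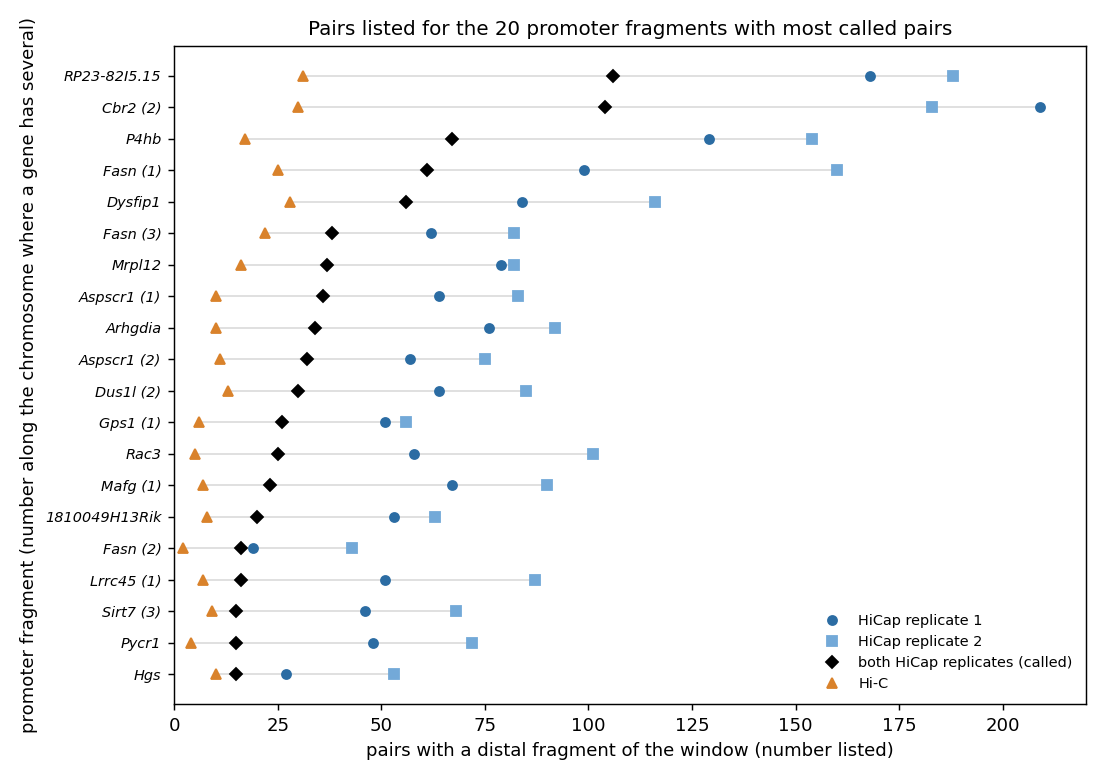
Number of pairs with a distal fragment of the window (x axis) for the 20 promoter fragments with the most called pairs (y axis), as listed by HiCap replicate 1 (circles), replicate 2 (squares), both (diamonds) and Hi-C (triangles). RP23-82I5.15 and Cbr2 lie above 100 called pairs and P4hb follows with 67, and for every promoter shown Hi-C lists fewer pairs than either HiCap replicate.

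The other leading genes were Dysfip1, for a dysferlin-interacting protein, with 56 distal fragments, Aspscr1, for a tether of glucose transporter vesicles, with 51 over 3 promoter fragments, and Mrpl12 with 37. Arhgdia followed with 34, Dus1l with 33 and Mafg, for a small Maf transcription factor, with 27. Gps1 reached 26, from a fragment that also holds the start of Rfng, and Rac3 25. Among these, Dysfip1 had the highest share of called pairs in Hi-C, 22 of 56 (39.3%), and Rac3 the lowest, 1 of 25.

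Grouped by role, every list of genes had called pairs, as did 48 of the 53 captured promoter fragments of the window that a replicate lists. The linked promoters of the 3 immune surface genes and of Slc16a3, Hexdc, Csnk1d and Nploc4 lie outside the window. A gene with promoters only outside the window was counted as named only if it had a called pair. For such genes the call was therefore fixed by the counting. All 9 genes listed under carbohydrate, lipid and amino acid metabolism had called pairs, 334 in all, with 26.3% in Hi-C and a median distance of 15.2 kb. Ppp1r27 was kept among them under its older symbol Dysfip1, although it encodes a dysferlin-interacting protein, and it gave 56 of the 334 pairs. Of the 88 pairs of this list in Hi-C, Fasn gave 39, Cbr2 22 and Dysfip1 22. With the promoter RP23-82I5.15, which holds a start of Slc25a10 but carries another name, there were 440 pairs with 25.5% in Hi-C. Besides Fasn, Cbr2 and Dysfip1 the 9 were Pycr1, of proline synthesis, with 15 distal fragments, Slc25a10 with 14 under its own name, Dcxr, a xylulose reductase, with 13, Pcyt2, of phosphatidylethanolamine synthesis, Slc16a3 and Hexdc. All 8 genes listed under folding, ubiquitin and trafficking had called pairs, 216 in all with 14.8% in Hi-C, Oxld1 under its older symbol 1810049H13Rik. Hgs, of endosomal sorting, reached 15 and Arl16, an ARF-like GTPase gene, 9. Of 9 signalling genes, 7 were named, with 96 pairs and 14.6% in Hi-C. Of 9 genes of transcription, RNA and DNA repair, 7 were named and 6 had 141 called pairs, with 21.3% in Hi-C and 78.7% passing over a captured promoter. Alyref and Thoc4 were counted separately there, although the fragment named Alyref holds an annotated start of Thoc4. Lrrc45, of the centrosome, and Ccdc57, of 5 cytoskeleton and cilia genes, had 37 pairs, all of which passed over a captured promoter, and the 3 immune surface genes had 7.

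At some promoters the called pairs and the Hi-C pairs had nothing in common, Gcgr being the one with the most Hi-C pairs. Its fragment at 120391771 to 120392051 was listed with 25 distal fragments in replicate 1 and 18 in replicate 2, with 4 called, and with 20 in Hi-C, none of which was among the 4. Its second fragment had 2 called and 7 Hi-C pairs, again with none in common. The Lrrc45 fragment at 120580549 to 120581141 had 7 called and 9 Hi-C pairs and shared none. The same held for smaller numbers at Tspan10 (2 called and 4 Hi-C pairs), Anapc11 (3 and 6), Myadml2 (1 and 5) and a Ccdc57 fragment (4 and 5). Each of these had at most 7 called pairs. Over the window, 20.3% of called pairs were in Hi-C and 45.8% of Hi-C pairs were called. With so few called pairs, the lack of common pairs is not read as a trait of these promoters. At the Fasn start, 16 of the 22 Hi-C pairs were among the 38 called pairs. Captured promoters inside the window that a replicate listed without any called pair were 5, namely 2 of Ccdc137, 1 of Pcyt2, 1 of Stra13 (a centromere protein gene) and 1 of Gps1, each listed with at most 6 pairs per replicate.

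Some promoters had many fragments in common, and those of differently named genes with the most are given here. RP23-82I5.15 and P4hb, 80.5 kb apart, had 35 distal fragments in common, which is 33.0% of those of the first and 52.2% of those of the second. Dysfip1 and P4hb shared 31 (55.4% and 46.3%), and RP23-82I5.15 and Dysfip1 shared 26 (24.5% and 46.4%). Mrpl12 and RP23-82I5.15 shared 24 (64.9% and 22.6%). On the other side, Cbr2 and the Fasn fragment with 61 pairs shared 25 (24.04% and 41.0%), and the Dus1l fragment at 120657374 to 120658022 shared 23 of its 30 with the same Fasn fragment. Gps1 shared 18 of its 26 with it (69.2%). Fasn and P4hb, the namesakes of the cluster, shared 2 fragments of their 73 and 67. Cbr2 had 63 of its 104 fragments in common with some other gene and RP23-82I5.15 had 82 of its 106.

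The gene-free intervals were dominated by single promoters. Between Cbr2 and Rfng (120593429 to 120642059, 48631 bp), 66 fragments carried 124 pairs with 23 promoters, and Cbr2 alone made 56 of these pairs, at 2.04 to 47.7 kb, none of which passed over a captured promoter. Of these 56, 16 were in Hi-C (28.6%). Between Slc25a10 and Gm11789 (120360502 to 120388168, 27667 bp), 50 fragments carried 96 pairs with 16 promoters. RP23-82I5.15 made 40 of them, at 7.69 to 33.5 kb, each over 2 captured fragments of Slc25a10, and 12 of the 40 were in Hi-C.

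The pairs of the window were divided at the position between P4hb and Fasn that the fewest of them crossed. It was chosen from these same pairs, so the division is a description. Counted at steps of 5 kb, this was position 120475000, between the captured fragments of Pcyt2, where 47 pairs crossed (4.94% of 951). The other steps from 120450000 to 120485000 were crossed by 50 to 52 pairs. Wholly below 120475000 lay 381 pairs of 18 gene names and wholly above it 523 of 23. The most pairs, 172, spanned position 120595000, beside Cbr2, and even there most of the 951 did not cross. In the Hi-C list 20 pairs spanned the position at Pcyt2 and 50 the one beside Cbr2. The 47 crossing pairs joined 20 promoters to 33 fragments at a median of 147.5 kb, and 1 of them was in the Hi-C list.

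**Figure D4:**
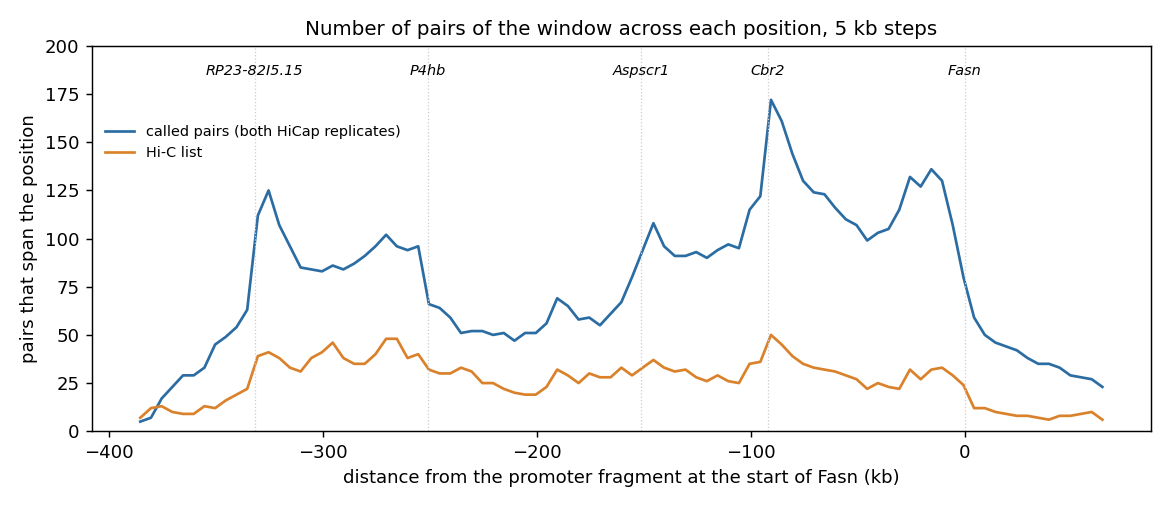
Number of pairs whose promoter and distal fragment lie on opposite sides of a position (y axis), at steps of 5 kb along the window (x axis, kb from the promoter fragment at the start of Fasn), for called pairs in blue and the Hi-C list in orange. Dotted lines mark named promoters. The called pairs fall to 47 between P4hb and Aspscr1 and reach 172 beside Cbr2.

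Distances in the cluster ran from 1.65 to 446.8 kb between midpoints. The median was 18.7 kb with quartiles of 7.96 and 47.7 kb, beside a median of 10.3 kb over the series. Of the 951 pairs, 402 were over 25 kb (42.3%, 39.1 to 45.5), beside 25.6% over the series, and 96 over 100 kb (10.1%, 8.25 to 12.2), beside 6.32%. The pairs of replicate 1 had a median of 34.3 kb, those of replicate 2 of 55.1 kb and those of Hi-C of 11.7 kb. Over 1 Mb, replicate 1 listed 4 pairs and replicate 2 listed 96, and none was in both. Of 824 pairs of genes with a known strand, 419 lay upstream of the promoter (50.8%, 47.4 to 54.3), so that neither side was preferred beyond counting error.

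The longest called pair joined Hexdc to the fragment between Cbr2 and Rfng over 446.8 kb. RP23-82I5.15 followed at 329.8 kb to a fragment inside Fasn, then Mrpl12 at 328.8 kb to another, then RP23-82I5.15 again at 325.2 and 320.9 kb. Of the 27 pairs over 200 kb, 2 were in the Hi-C list, those of Cd7 at 219.3 kb and of Pcyt2 at 201.8 kb, both of which ended inside Fasn.

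Called pairs passed over other captured promoters more often in the cluster than elsewhere. Captured promoters were counted as the promoter fragments that any list names, of which 57 lie in the window, 4 of them only in the combined list. Further promoter fragments of the pair's own gene were counted too. Of the 951 pairs, 658 (69.2%, 66.1 to 72.1) passed over at least 1, beside 39.9% over the series. With the distances of the window, the other pairs of the series gave 51.7%. At 10 to 25 kb the share was 79.3% (73.6 to 84.2) in the window and 45.6% elsewhere, and at 5 to 10 kb it was 43.5% (36.1 to 51.1) and 21.5%. All 133 pairs of the window at 50 to 100 kb and all 96 at 100 to 500 kb passed over a captured promoter.

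The mean number passed over was 4.17 and the median 2, beside 1.57 and 0 over the series and a mean of 2.15 at the distances of the window. At least 5 were passed over by 27.4% of the pairs and at least 10 by 11.4%, beside 9.66% and 3.23%. The most, 45, lay under the pair of Mrpl12 at 328.8 kb. Of the promoter fragments that a replicate lists, those passed over by the most pairs were the smallest of Fasn (124), the lesser of Cbr2 (121) and the second of Slc25a10 (118). These had 16, 2 and 7 called pairs of their own. The lesser Gps1 fragment, with none of its own, was passed over by 105 and Stra13, also with none, by 97.

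Hi-C, which the choice of the pairs did not use, held 193 of the 951 called pairs with the identical promoter and distal fragment (20.3%, 17.8 to 22.99). Over the series 12.5% of called pairs were in the Hi-C list, and with the distances of the window the other pairs gave 9.92%. The share depended on distance. At 1 to 5 kb it was 40.5% (32.0 to 49.4) in the window and 20.6% elsewhere, at 5 to 10 kb 36.7% (29.6 to 44.3) and 15.7%, and at 10 to 25 kb 19.9% (15.1 to 25.5) and 9.50%. In these 3 classes the interval of the window lay above the share of the other pairs. At 25 to 50 kb the shares were 8.09% (4.49 to 13.2) and 5.32%, and at 100 to 500 kb 2.08% (0.253 to 7.32) and 2.47%, which could not be told apart at these numbers of pairs. At 50 to 100 kb they were 8.27% (4.20 to 14.3) and 3.85%, the lower bound lying just above the share of the other pairs. No test was made, since the pairs share fragments and the Hi-C list pools its replicates, and whether the depth of the Hi-C libraries or the density of fragments in the window bears on the shares was not tested.

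**Figure D5:**
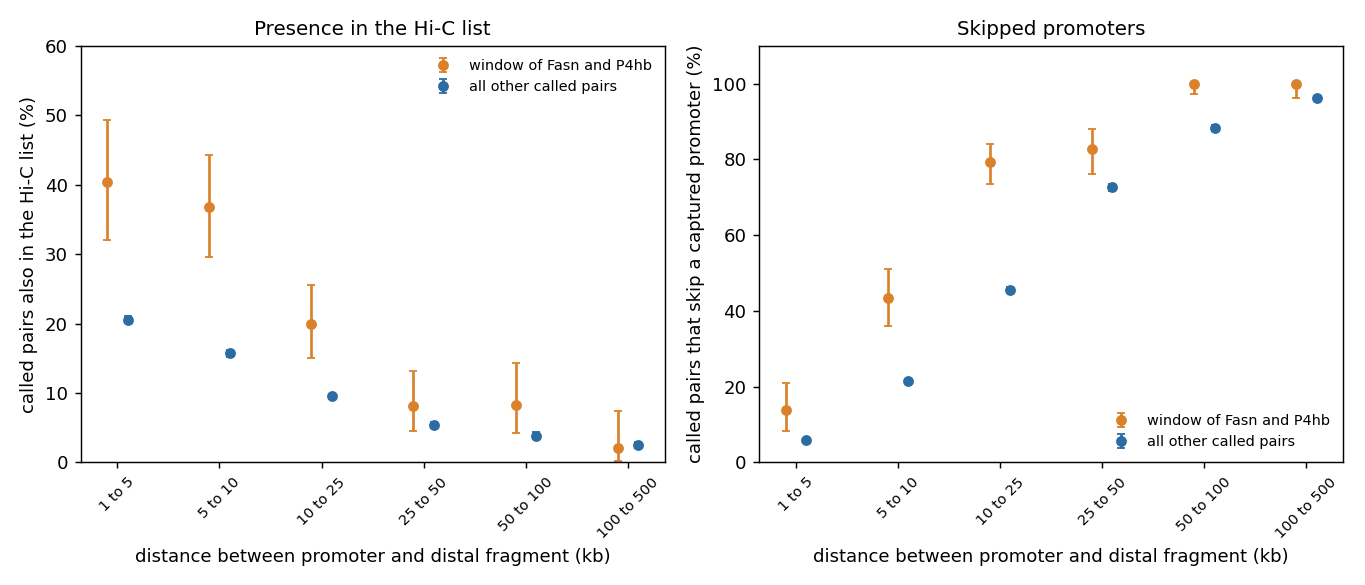
Share of called pairs also in the Hi-C list (left, %) and share that passes over at least 1 captured promoter (right, %), by distance class in kb, for the 951 pairs of the window in orange and all other called pairs of the series in blue. Bars are exact binomial 95% intervals, which cover counting error only. At 1 to 5 kb the shares in Hi-C were 40.5% and 20.6%, and at 100 to 500 kb 2.08% and 2.47%.

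Read from the Hi-C list, 193 of its 421 pairs in the window were called (45.8%, 41.0 to 50.7), beside 15.8% over the series. A further 98 were listed by 1 HiCap replicate and 130 by neither, so that 69.1% were in at least 1. Pairs that replicate 1 alone listed were in Hi-C in 54 of 1175 cases (4.60%, 3.47 to 5.95) and those of replicate 2 alone in 44 of 1986 (2.22%, 1.61 to 2.96), both below the 20.3% of the pairs in both. Over the series these shares were 3.17% and 1.05%, also below the 12.5% of the pairs in both. Distance was not matched in this comparison. The Hi-C list showed sharing of fragments too. Of its 258 distal fragments in the window, 94 had at least 2 promoters (36.4%, 30.6 to 42.6), beside 9.16% of all Hi-C fragments. The mean was 1.63 promoters per fragment beside 1.12, and no fragment had more than 6. Of the 384 called fragments, 222 were in at least 1 Hi-C pair (57.8%) and 136 kept the same promoter in at least 1.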

How the data were processed

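The authors deposited lists of positions on mm9, with no read number and no normalization. Each entry of HiCap replicate 1, HiCap replicate 2, the combined HiCap calls and Hi-C holds the ends of 1 promoter fragment with its gene name and the ends of 1 distal fragment. According to their methods, both ends of read pairs were mapped separately, reads with several positions, duplicates and pairs under 1 kb apart were discarded, ends were assigned to MboI fragments, and a HiCap interaction needed at least 3 read pairs in each replicate. For Hi-C the minimum of read pairs is not given in the sources used here. Depth is therefore known only as the number of listed pairs. No column of per-sample values was left out.

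Positions are given from 1. Called pairs are those with identical promoter and distal fragments in both HiCap lists. Distance was taken between midpoints, and a promoter was passed over when its whole fragment lay between both partners. Series values at the distances of the window are those of the other called pairs weighted by the window's shares in 6 distance classes. Genes and start sites are from GENCODE vM1, and sequences from NCBIM37. The sequence of 1 widely shared fragment is not reported here. Python 3.11.15, pandas 2.3.3, numpy 2.4.6 and scipy 1.17.1 were used, and the counting was tested on simulated lists.

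No p-value was computed. Named genes are Fasn, P4hb, the 10 genes and 10 fragments with the most partners, the genes of the 5 longest pairs, genes without a call and members of the role lists, older symbols being matched through RefSeq synonyms. Gm11788, Gm11789, Rfng, RP23-99M13.8 and Myadml2, with Tspan10, are position marks or partners and were named after their values were seen. The members, lists and comparisons were chosen with earlier results of these data known. Alternatives were the combined list, each replicate alone, gene in place of promoter fragment, pairs over 15 kb, matches within 1 kb, merged fragments, nearest ends, and other definitions of a captured promoter.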

Additional observations from a re-analysis of the deposited data

How the results depend on the processing

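Leaving aside the mean number of promoters passed over, 25 of 49 alternative values stayed within 1.5 times the count or within 1 SD of the 2 single-replicate values. For that mean the SD, 28.4, is set by replicate 2 alone and exceeds the value of 4.17, so it separates nothing. It was 6.97 with pairs over 15 kb only and 2.74 with annotated genes. With 1 replicate alone in place of both, the ranges were 2126 to 2937 pairs, 540 to 600 distal fragments, 82 to 195 promoters, 3.94 to 4.90 promoters per fragment, 76.5 to 84.7% of fragments with 2 or more, a median distance of 34.3 to 55.1 kb, 80.0 to 86.3% of pairs over a captured promoter, 7.96 to 48.1 promoters passed over and 8.07 to 11.6% of pairs in Hi-C. With pairs over 15 kb only, there were 533 pairs, 40.1% of fragments had 2 or more promoters, the median distance was 43.5 kb, 91.2% of pairs passed over a captured promoter and 9.01% were in Hi-C. By construction this setting drops the short pairs.

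Matching distal fragments of the replicates within 1 kb gave 1714 pairs, and merging adjoining fragments gave 151 distal regions. With annotated genes in place of captured promoters, 57.2% of pairs passed over at least 1. In Hi-C, 56.7% of called pairs had the same gene with a fragment within 1 kb, beside 40.1% over the series, and 25.03% had the same gene with the identical fragment. The combined list gave 951 pairs and 18.9% in Hi-C.

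No paired analysis was possible because the Hi-C list pools its replicates and no result comes from a test. The lists hold no read numbers, so pairs near the callers' minimum cannot be told from strong ones.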
